A study of Homo sapiens with 6 samples.

Results

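Cleavage and polyadenylation factors are the proteins that cut nearly every new messenger RNA and prepare its end for a poly(A) tail. The 10 genes described here were chosen by name, for their place in this machinery: CPSF1, CPSF2, CPSF3, CPSF6, CPSF7, NUDT21, CSTF1, CSTF2, CSTF3 and PCF11. They are 10 of the 62700 genes in the deposited gene table, and all 10 were among the 14292 genes with enough signal to test. RNA was measured in TCam-2 cells, a human testicular cancer line derived from a seminoma, in 3 groups of 2 libraries each. WT cells were not transduced, GFP cells carried GFP_FLAG, and RBMXL3 cells carried RBMXL3_FLAG, a tagged copy of an RNA-binding protein related to the splicing regulator RBMX. All 6 libraries came from poly(A)-selected RNA and a stranded mRNA kit. The labels do not say whether the 2 libraries of a group came from separate cultures or transductions, so the p-values measure only the spread between these libraries, which may be technical.

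Several protein complexes share the work on a pre-mRNA. CPSF reads the AAUAAA signal and makes the cut, CSTF binds the GU-rich stretch downstream of it, and the cleavage factor Im made of NUDT21 with CPSF6 or CPSF7 binds UGUA elements upstream and is known to favour the more distal of alternative sites. PCF11 is a scaffold that also contacts the tail of RNA polymerase II and helps it terminate.

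The libraries held 17685680 to 29318007 recovered reads, with both RBMXL3 libraries the shallowest. RBMXL3 itself had 0 reads in all 4 control libraries, a result that still permits up to 3 reads, and 84 and 68 reads in the RBMXL3 libraries. All 10 of the seminoma and germ cell tumour markers examined were present, with summed levels of 117741 to 135145 normalised reads in the controls and 121709 and 121073 in RBMXL3. Their median log2 change in RBMXL3 was -0.13 against GFP, with 9 of 10 below 0, and -0.25 against WT, with 7 of 10 below 0, and 2 of them (KIT and LIN28A) were called lower against both controls. The 3 embryonal carcinoma markers summed to 829.7 to 1501 normalised reads in the controls and to 1123 and 1172 in RBMXL3. The summed fibroblast markers were 8391 and 9581 normalised reads in the WT libraries and 13238 and 11772 in GFP, against 12160.3 and 12999 in RBMXL3. Leukocyte markers summed to 30.5 to 44.5 normalised reads in the controls and to 74.7 and 77.0 in RBMXL3, and CD3E was at 0 in every library. Testicular somatic markers summed to 193 to 265 in the controls and to 315 and 355 in RBMXL3, with CYP17A1 at 0 in every library. The part of these markers in the results was not tested. In such bulk samples, fewer cells of a kind and less RNA per cell cannot be told apart.

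Some of the factors' RNA sequences are given here because the results on transcript ends and on a skipped exon turn on them. The ends are the last 30 bases of GENCODE 29 transcripts on GRCh38, written 5′ to 3′, with the poly(A) signal AATAAA in capitals. They belong to NUDT21-201 (chr16:56429133-56429162, minus strand), CPSF3-201 (chr2:9473072-9473101, plus strand), CSTF3-201 (chr11:33084584-33084613, minus strand) and PCF11-207 (chr11:83158850-83158879, plus strand).
NUDT21-201: tcatttcAATAAAaaatatttgaaagagaa
CPSF3-201: aaAATAAAatgcattcgtttctctggggga
CSTF3-201: tcctttaaaaAATAAAaggattcagaaaca
PCF11-207: aaaatttgtgAATAAAacatataaaatatg
The signal lies 17 bases before the annotated end of NUDT21-201, 22 before that of CPSF3-201 and 14 before those of CSTF3-201 and PCF11-207. For each of the 10 genes, the most abundant transcript with a complete annotated end was searched for AATAAA in these last 30 bases. It was present in 8 of 10, against 47.6% of the 13567 genes whose most abundant such transcript was searched the same way. Its reverse complement TTTATT was in 0 of 10, against 4.10% of those genes. For PCF11 the transcript searched was PCF11-207, a short model that ends near the start of the gene. PCF11-207 had a mean of 2.93 TPM, beside 27.7 TPM for all PCF11 transcripts in GENCODE 29 together, a sum that stands low against the gene's reads. The search is a description of the ends in GENCODE 29, which may differ from the deposited versions, and says nothing about which sites were used.

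By summed TPM, NUDT21 was the most abundant of the 10 genes, at 152 to 180.2 across the 6 libraries. Summed TPM is a per-length measure scaled to a fixed library total and summed over the gene's transcripts in GENCODE 29. CPSF6 followed with 109.8 to 135 TPM and CPSF3 with 96.3 to 128 TPM. CPSF1 ranged from 72.1 to 104 TPM, CPSF7 from 52.1 to 76.3 TPM, CSTF1 from 54.7 to 64.9 TPM, CSTF3 from 43.6 to 64.9 TPM and CPSF2 from 38.3 to 56.7 TPM. PCF11 had 20.4 to 36.5 TPM and CSTF2 13.6 to 18.4 TPM. In this order of mean levels, each gene's range overlapped its neighbour's from CPSF6 down to CPSF2. NUDT21 stood above CPSF6, CPSF2 above PCF11 and PCF11 above CSTF2 without overlap. This order is that of summed TPM only, and the gene table does not bear out the places of NUDT21 and PCF11. Scaled to the median gene, NUDT21 had only 8.65% to 27.3% of the gene reads that its TPM implies. PCF11 had 343% to 488%.

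**Figure D1:**
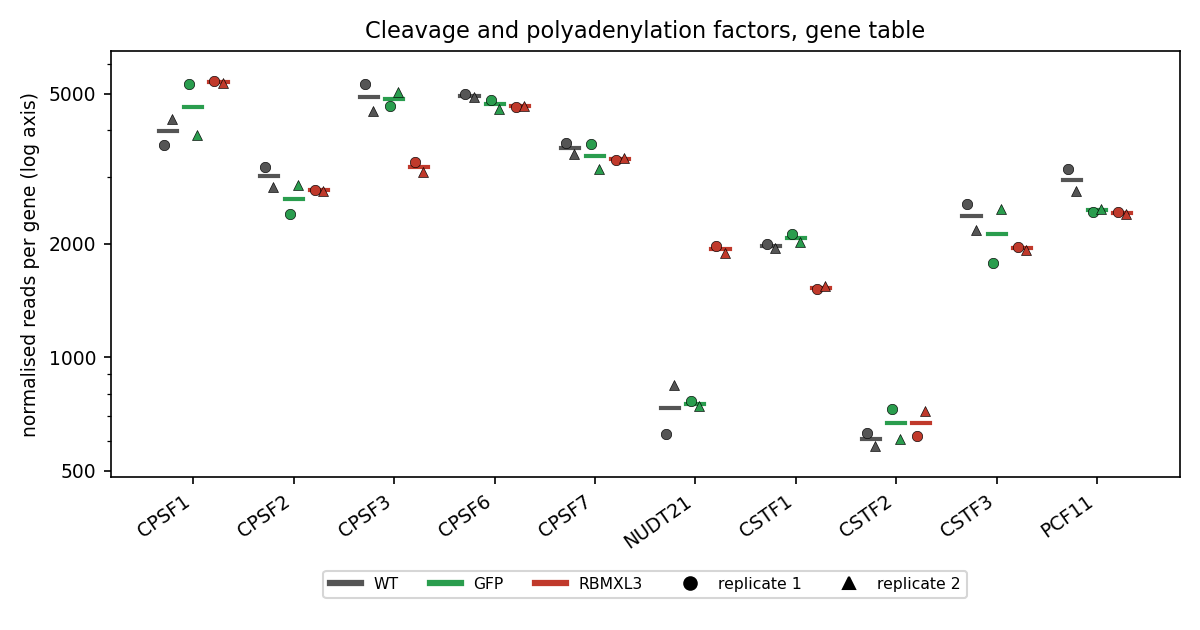
Normalised reads of each factor in the 6 libraries (log axis), from the gene table; circles and triangles are replicates 1 and 2 and bars are group means. NUDT21 lies at 1894 and 1978 in the RBMXL3 libraries against 626 to 842 in the controls, and CPSF3 and CSTF1 lie below all 4 controls.

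In the gene table, RBMXL3 cells had more NUDT21 reads and fewer CPSF3 and CSTF1 reads than either control. These 3 genes, 1 higher and 2 lower, were called against both GFP and WT. Across all tested genes, 13.7% met the same rule, 6.88% in the higher direction and 6.86% in the lower. A gene is called here when its Benjamini-Hochberg adjusted p over all tested genes is under 0.05 in limma, and the comparisons with GFP and with WT share the RBMXL3 libraries. Against GFP alone, the same 3 of 10 were called, where 20.9% of all genes were. Against WT alone, 5 of 10 were called, where 29.9% of all genes were, CPSF1 being the second gene higher and PCF11 the third lower. With 10 genes, nothing particular to the group was read from these counts. The median log2 change of the 10 was -0.02 against GFP and -0.11 against WT, beside 0.00 and -0.01 for all tested genes.

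The 2 controls were closer to each other. Set against WT, GFP gave 0 calls among the 10 genes with limma, edgeR and DESeq2 alike, and 1 had an unadjusted p under 0.05 in limma. Of all tested genes, 3.67% were called in that comparison. The log2 changes of the 10 between the controls ran from -0.26 for PCF11 to 0.19 for CPSF1.

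CPSF3 is the endonuclease that makes the cut. It had 5316 and 4488 normalised reads in the WT libraries and 4641 and 5057 in GFP, against 3296 and 3093 in RBMXL3. Both RBMXL3 libraries lay below all 4 controls. Its RNA fell by 0.60 on the log2 scale against GFP (SE 0.11, adjusted p = 0.00284, limma) and by 0.61 against WT (SE 0.11, adjusted p = 0.00151, limma). In summed TPM the order was the same, with 128 and 119.6 in WT and 118 and 115 in GFP, against 99.6 and 96.3 in RBMXL3. That difference was smaller, -0.25 against GFP and -0.33 against WT, and was not called (adjusted p = 0.122 and 0.0542, limma). Leaving out the second RBMXL3 library ended the call against GFP in the gene table (adjusted p = 0.0599, limma).

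CPSF1 is the largest CPSF subunit and a scaffold for the signal-reading module. It had 3661 and 4296 normalised reads in the WT libraries and 5317 and 3878 in GFP, against 5406 and 5352 in RBMXL3. Both RBMXL3 libraries lay above the controls, but the first GFP library came close to them. CPSF1 rose against WT by 0.44 on the log2 scale (SE 0.14, adjusted p = 0.0285, limma), and its difference from GFP was 0.24 with a 95% interval of -0.05 to 0.54 (adjusted p = 0.223, limma). Without the first GFP library the difference from GFP was 0.47 and was called (adjusted p = 0.00558, limma). The call against WT was lost when either WT library or either RBMXL3 library was left out, and without a filter on low genes (adjusted p = 0.154, limma). CPSF2, the catalytically inactive partner of CPSF3, had 3203 and 2836 normalised reads in the WT libraries and 2392 and 2866 in GFP, against 2779.7 and 2760.0 in RBMXL3, so the groups overlapped. Its log2 change was 0.08 against GFP (95% interval -0.16 to 0.32) and -0.12 against WT (95% interval -0.36 to 0.12).

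CSTF1 is the WD-repeat subunit that holds the CSTF complex together with CSTF3. It had 1993 and 1946 normalised reads in the WT libraries and 2119 and 2025 in GFP, against 1519 and 1541 in RBMXL3. The groups did not overlap. CSTF1 fell by 0.43 on the log2 scale against GFP (SE 0.09, adjusted p = 0.00764, limma) and by 0.36 against WT (SE 0.09, adjusted p = 0.0129, limma). Both calls were lost when either RBMXL3 library was left out, and the one against WT when either WT library was. In summed TPM the groups overlapped, with 54.7 to 64.9 in the controls and 55.7 and 56.3 in RBMXL3, and the log2 change was -0.09 against GFP and -0.12 against WT (adjusted p = 0.637 and 0.514, limma).

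The other CSTF subunits did not pass the test. CSTF2, which binds the downstream RNA element, had 631 and 581 normalised reads in the WT libraries and 728 and 607 in GFP, against 617 and 722 in RBMXL3, with overlapping groups. Its log2 change was 0.00 against GFP (95% interval -0.27 to 0.28) and 0.14 against WT (95% interval -0.14 to 0.41). Because a near copy of this gene, CSTF2T, exists, its reads are less certain. CSTF3, the dimerising scaffold of the complex, had 2554 and 2179 normalised reads in the WT libraries and 1782 and 2472 in GFP, against 1965 and 1923 in RBMXL3. The RBMXL3 libraries lay inside the GFP range and below both WT libraries. Its log2 change was -0.11 against GFP (95% interval -0.41 to 0.19) and -0.28 against WT (95% interval -0.57 to 0.02). Of its exon bases, 14.5% lie under genes of the opposite strand, and the strand setting of the counting is not given in the sources used here.

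NUDT21, the UGUA-binding subunit of cleavage factor Im, is the factor on which the deposited tables differ most. In the gene table it had 626 and 842 normalised reads in the WT libraries and 765 and 741 in GFP, against 1978 and 1894 in RBMXL3. It rose by 1.33 on the log2 scale against GFP (SE 0.13, adjusted p = 0.000115, limma) and by 1.39 against WT (SE 0.13, adjusted p = 3.06e-05, limma), and every RBMXL3 library lay above every control. In the transcript table its summed TPM was 180.2 and 165 in WT and 171 and 167 in GFP, against 156 and 152 in RBMXL3. There the RBMXL3 libraries were the lowest of the 6, with a log2 change of -0.14 against GFP (95% interval -0.34 to 0.07) and -0.16 against WT (95% interval -0.37 to 0.04), and neither was called (adjusted p = 0.353 and 0.251, limma). The rise in the gene table was thus not seen in summed TPM.

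**Figure D2:**
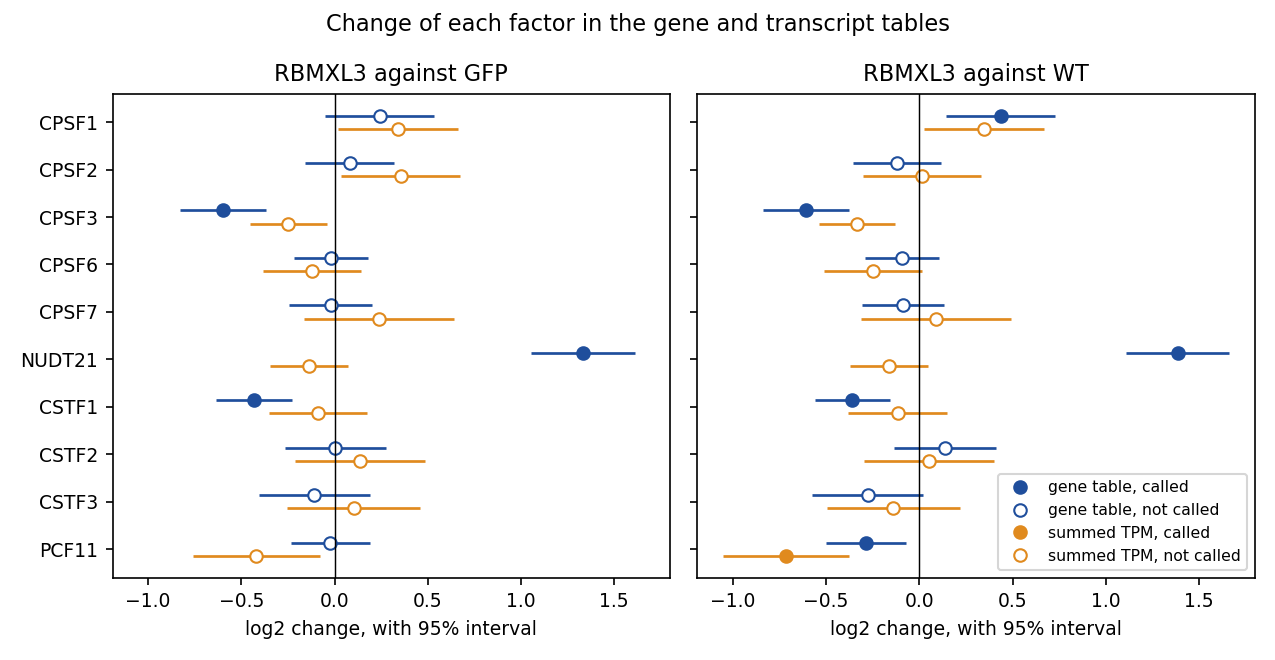
Log2 change of each factor in RBMXL3 against GFP (left) and WT (right) with 95% intervals, from the gene table (blue) and from summed TPM (orange); filled points passed an adjusted p of 0.05. NUDT21 is at 1.33 and 1.39 in the gene table and at -0.14 and -0.16 in summed TPM, while CPSF3 is below 0 in both.

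The tables can be set against each other library by library. For each gene, the reads in the gene table were divided by those that its TPM and transcript lengths imply, and the ratio was scaled so that the median gene is at 100%. By this measure NUDT21 had 8.65% and 12.1% of the implied reads in WT and 11.5% and 10.5% in GFP, against 27.3% and 26.6% in RBMXL3. Its gene-level count thus held far fewer reads than its transcripts imply in every library, and the shortfall was smaller in RBMXL3. The lowest RBMXL3 value was 2.19 times the highest control value, and 23 of 13650 genes (0.168%) had a ratio of over 2 between those values. The measure was chosen after both tables had been seen. Of the other factors, 8 stood between 75.8% and 136% in every library. PCF11 was at 343% to 488%, so that its summed TPM over GENCODE 29 transcripts stands low against its reads.

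**Figure D3:**
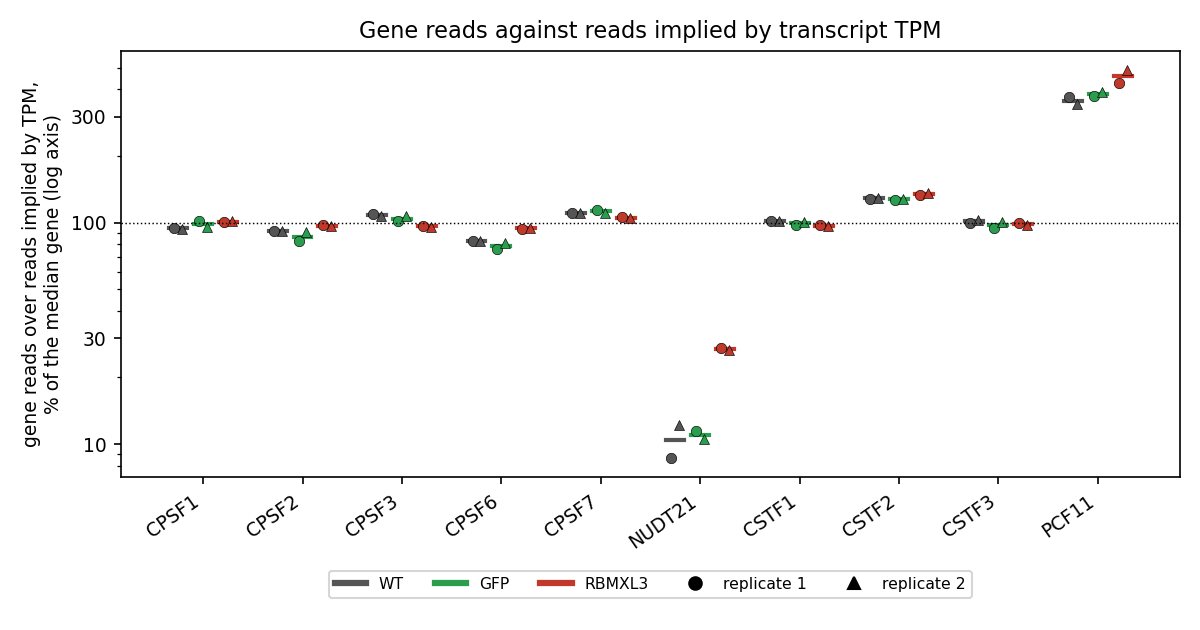
Reads in the gene table relative to the reads implied by TPM and transcript length, as a percentage of the median gene (dotted line at 100, log axis), for each factor and library. NUDT21 is at 8.65 to 12.1 in the controls and at 26.6 and 27.3 in RBMXL3, and PCF11 lies at 343 to 488.

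NUDT21 lies at chr16:56429133-56452199 on the minus strand of GRCh38. No exon of another gene in GENCODE 29 overlaps its exons, though OGFOD1 on the opposite strand overlaps its span. OGFOD1 had 1819.7 and 2068 normalised reads in the WT libraries and 1580.1 and 1935 in GFP, against 1463 and 1566 in RBMXL3, so that it was lowest in the RBMXL3 libraries, where the NUDT21 count was highest. The annotation used for the gene table is not given in the sources used here.

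Within NUDT21, the full-length transcript NUDT21-201 had 87.6 and 88.3 TPM in WT and 73.6 and 78.2 in GFP, against 99.3 and 102 in RBMXL3. Its share of the gene's TPM was 48.6% and 53.4% in WT and 43.0% and 46.8% in GFP, against 63.6% and 67.2% in RBMXL3. The groups did not overlap, but its usage, the log2 change of a transcript relative to the other transcripts of its gene, was not called (1.18 against GFP and 0.82 against WT, adjusted p = 0.0754 and 0.267, limma diffSplice). NUDT21-204, a coding model whose annotated end is incomplete, had 44.4 to 53.0 TPM in the controls and 30.8 and 27.2 in RBMXL3. NUDT21-205, a retained-intron transcript, had 27.9 to 51.0 TPM in the controls and 25.8 and 22.1 in RBMXL3. Both were lower in both RBMXL3 libraries than in all 4 controls, and neither was called in usage.

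Across all tested genes, the 3 whose gene-table values were most like those of NUDT21 were ZNRF2 (Pearson r of 0.999 on the log2 scale over 6 libraries), GIGYF1 (0.998) and CA11 (0.998). ZNRF2 had 83.8 to 118 normalised reads in the controls and 348 and 345 in RBMXL3. In all, 297 genes had an r of 0.95 or more, over libraries that fall into few groups, so the likeness is a description only.

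The 2 larger subunits of cleavage factor Im, which pair with NUDT21 and carry arginine-rich tails, did not pass the test. CPSF6 had 4989 and 4897 normalised reads in the WT libraries and 4822 and 4561 in GFP, against 4616 and 4648 in RBMXL3, with a log2 change of -0.02 against GFP (95% interval -0.22 to 0.18) and -0.09 against WT (95% interval -0.29 to 0.11). CPSF7 had 3706 and 3451 in WT and 3677 and 3165 in GFP, against 3336 and 3384 in RBMXL3, with a log2 change of -0.02 against GFP (95% interval -0.24 to 0.20) and -0.09 against WT (95% interval -0.31 to 0.13). For both genes the RBMXL3 values lay within the GFP range. None of the transcripts that carry 10% or more of either gene was called in usage. CPSF6-201 ranged from 28.3% to 46.0% of CPSF6, CPSF6-203 from 36.3% to 50.3% and CPSF6-202 from 17.3% to 20.8%.

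PCF11 had 3158 and 2758 normalised reads in the WT libraries and 2428 and 2477 in GFP, against 2427 and 2404 in RBMXL3. The RBMXL3 libraries were the lowest of the 6 but lay close to both GFP libraries. PCF11 fell by 0.29 on the log2 scale against WT (SE 0.10, adjusted p = 0.0445, limma), while the difference from GFP was -0.02 with a 95% interval of -0.24 to 0.19. The call against WT was lost without the first WT library or either RBMXL3 library, with DESeq2 (adjusted p = 0.0662), with quantile normalisation (adjusted p = 0.150, limma), without a filter on low genes (adjusted p = 0.0999, limma) and with the replicate number as a block (adjusted p = 0.0715, limma). In summed TPM, PCF11 had 32.5 and 36.5 in WT and 31.9 and 24.4 in GFP, against 20.4 and 20.8 in RBMXL3. It fell by 0.71 on the log2 scale against WT (adjusted p = 0.0292, limma) and the difference from GFP was -0.42 (adjusted p = 0.115, limma). These are changes of the summed transcripts only, and those in the gene table were smaller. The gene reads of PCF11 relative to those implied by TPM were 343% to 390% of the median gene in the controls. They were 428% and 488% in RBMXL3, so the summed TPM stood low against the reads, and lowest there. The cause of this difference was not tested. PCF11 was the only one of the 10 called in summed TPM, against WT, where 11.5% of all genes were called. Against GFP 0 of 10 were called in summed TPM by limma, with 4 at an unadjusted p under 0.05, where 6.92% of all genes were called, and 0 of 10 were called against both controls, where 4.59% of all genes were. Of the exon bases of PCF11, 17.0% lie under genes of the opposite strand.

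PCF11-207 is a short model whose annotated end, printed above, lies near the start of the gene. It had 3.13 and 3.09 TPM in WT and 1.44 and 2.68 in GFP, against 3.36 and 3.89 in RBMXL3. Its share of the gene's TPM was 9.64% and 8.45% in WT and 4.53% and 10.97% in GFP, against 16.5% and 18.7% in RBMXL3. The RBMXL3 shares lay above all controls, but its usage was not called (1.01 against GFP and 0.81 against WT, adjusted p = 0.343 and 0.508, limma diffSplice). The coding model PCF11-205, which lacks both ends of the gene, went from 11.2 to 22.3 TPM in the controls to 7.58 and 8.98 in RBMXL3 and was not called either.

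Transcript usage was tested for 46 of the 92 transcripts of the 10 genes that GENCODE 29 lists in the transcript table. Of these, 2 were called against both controls, CPSF2-203 higher and CPSF1-207 lower, where 2.46% of all 36184 tested transcripts were (0.976% higher and 1.48% lower). The same 2 were called against each control alone, where 4.45% of all were called against GFP and 4.16% against WT. Between GFP and WT, 0 of 46 were called by diffSplice and 0 had an unadjusted p under 0.05, where 0.445% of all were called. No transcript of the 10 genes was called when its share of the gene's TPM was tested in place of usage.

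CPSF2-203 is a short transcript of CPSF2. It had 0.594 and 1.55 TPM in WT and 1.53 and 0.766 in GFP, against 8.02 and 8.35 in RBMXL3. Its share of the CPSF2 TPM was 1.05% and 3.54% in WT and 3.98% and 1.92% in GFP, against 16.2% and 16.3% in RBMXL3. Every RBMXL3 library lay above every control. Its usage rose by 1.82 on the log2 scale against GFP and by 2.16 against WT (adjusted p = 0.00297 and 0.00075, limma diffSplice). Its level in TPM changed by 2.12 and 2.19 on the log2 scale but was not called (adjusted p = 0.0702 and 0.0612, limma; 1.15% of all transcripts were called in level against GFP and 1.48% against WT), and its share was not called (adjusted p = 0.142 and 0.13, limma). Leaving out either RBMXL3 library ended the usage call against GFP.

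GENCODE 29 marks CPSF2-203 as a target of nonsense-mediated decay, the pathway that removes messages with an early stop codon. It has 5 exons and 558 bases, and it lacks the fourth of the 16 exons of the coding transcript CPSF2-201. That exon, chr14:92134011-92134170 on the plus strand, is wholly coding. Its 160 bases leave a remainder of 1 after division by 3, so that its loss shifts the reading frame. It reads as follows.
CPSF2 exon 4: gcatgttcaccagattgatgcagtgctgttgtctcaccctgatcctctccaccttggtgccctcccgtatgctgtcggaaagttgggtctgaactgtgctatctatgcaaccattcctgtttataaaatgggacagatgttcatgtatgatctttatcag
In CPSF2-203, the exon that ends at position 92131133 joins the one that starts at 92134250 of chromosome 14. The spliced sequence around that junction begins with the last 20 bases of the earlier exon, and a stop codon (TAG, in capitals) follows in frame 37 bases after the junction.
CPSF2-203 junction: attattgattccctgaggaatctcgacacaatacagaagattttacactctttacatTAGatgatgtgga
CPSF2-201, a coding transcript that keeps the exon, had 13.8 and 13.2 TPM in WT and 11.3 and 12.01 in GFP, against 12.2 and 12.6 in RBMXL3, with overlapping groups. It carried 24.4% to 30.2% of the CPSF2 TPM, while the 3 coding transcripts of the gene together carried 83.7% to 99.0%. Whether the other coding transcripts keep the exon was not examined. As a part of CPSF2-201 and CPSF2-203 together, CPSF2-203 was 4.12% and 10.5% in WT and 11.9% and 5.996% in GFP, against 39.6% and 39.9% in RBMXL3. This ratio leaves out the rest of the gene, was computed after the values had been seen and was not tested. The gene's reads as a whole did not change beyond the spread of the libraries, as given above.

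**Figure D4:**
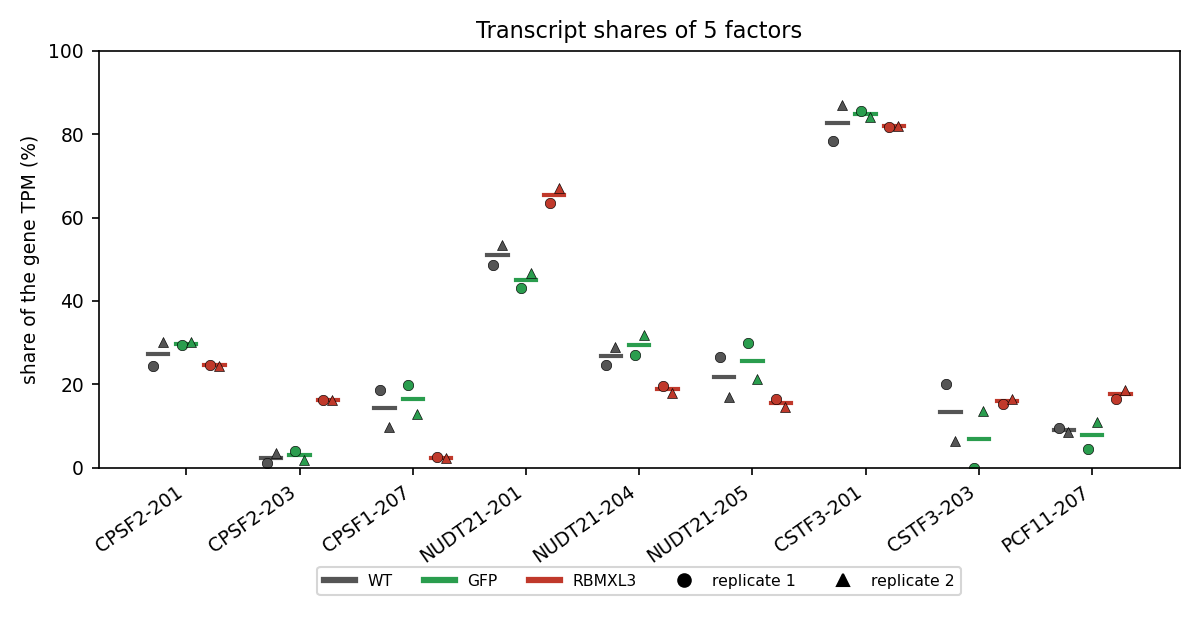
Share of the gene's TPM carried by 9 transcripts of 5 factors in each library; circles and triangles are replicates 1 and 2 and bars are group means. CPSF2-203 is at 1.05% to 3.98% in the controls and at 16.2% and 16.3% in RBMXL3, and CPSF1-207 at 9.81% to 19.8% against 2.51% and 2.36%.

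CPSF1-207 is a short coding model at the end of CPSF1, spanning chr8:144393229-144394441 on the minus strand. It had 13.4 and 8.64 TPM in WT and 17.5 and 9.42 in GFP, against 2.61 and 2.35 in RBMXL3. Its share of the CPSF1 TPM was 18.7% and 9.81% in WT and 19.8% and 13.0% in GFP, against 2.51% and 2.36% in RBMXL3, with no overlap. Its usage fell by 2.65 on the log2 scale against GFP and by 2.20 against WT (adjusted p = 0.00216 and 0.012, limma diffSplice). With a pseudocount of 0.1 in place of 1, its call against WT was lost. So was that call without the first WT library or either RBMXL3 library, and the one against GFP without the first GFP library or the first RBMXL3 library. The full-length CPSF1-212 had 39.9 to 56.0 TPM in the controls and 67.6 and 65.4 in RBMXL3 and was not called in usage.

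The remaining transcripts of the 10 genes were not called. CPSF3-201 carried 92.6% to 99.1% of CPSF3 in every library. CSTF1-206, marked as a decay target, carried 45.3% to 56.2% of CSTF1. CSTF2-201 ranged from 72.4% to 92.7% of CSTF2. CSTF2-202 was listed at 3.999 TPM in the second WT library and at 0 in the other 5. CSTF3-203, a short form of CSTF3 that ends within the gene, had 13.1 and 3.31 TPM in WT and 0 and 7.39 in GFP, against 7.88 and 8.80 in RBMXL3, so the controls spanned the RBMXL3 values. Short CSTF3 forms of this kind arise from an intronic poly(A) site that the complex itself is known to use.

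The factors act on transcript ends, and their own ends were compared as the share of a gene's TPM carried by transcripts that end within 200 bases of its most distal expressed end. This share could be tested for 9 of the 10 genes, all but CSTF2. Transcripts that end elsewhere include models with incomplete annotated ends and retained introns, so the share does not measure poly(A) site use. For NUDT21 they include the incomplete model and the retained-intron transcript described above. None of the 9 was called against either control by limma, where 0.698% of 6447 genes were called against GFP and 0.931% against WT. At an unadjusted p under 0.05, 1 of the 9 passed against GFP and 1 against WT. For NUDT21 the distal share was 48.7% and 53.8% in WT and 43.1% and 46.9% in GFP, against 63.7% and 67.4% in RBMXL3, without overlap but not called (adjusted p = 0.104 and 0.184, limma). For CPSF6 it was 17.3% to 19.3% in the controls and 19.9% and 21.0% in RBMXL3, and for CSTF1 7.86% to 11.998% in the controls and 6.83% and 7.54% in RBMXL3. The other 6 genes had overlapping groups.

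Beyond the 10 genes, 5 lists of related genes were read from the same fit. The other core factors of the machinery were all tested, 15 in number, and 3 were called higher and 1 lower against GFP (26.7%, beside 20.9% of all genes), and 3 higher and 0 lower against WT (20%, beside 29.9%). Their median log2 change was 0.09 against GFP and 0.01 against WT. PPP1CB, a phosphatase subunit that associates with the complex, had 1695 to 2495 normalised reads in the controls and 4879.6 and 4784 in RBMXL3, and it rose by 1.28 on the log2 scale against GFP and by 1.101 against WT (adjusted p = 0.000245 and 0.000226, limma). PABPN1, which coats the growing tail in the nucleus, had 95.2 to 179 normalised reads in the controls and 232 and 307 in RBMXL3, and it rose by 0.90 and 0.66 (adjusted p = 0.0126 and 0.0374, limma).

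As with NUDT21, these rises were not seen in summed TPM, where the log2 change of PPP1CB was 0.10 against GFP and 0.06 against WT and that of PABPN1 was 0.10 and -0.04. The gene reads of PPP1CB relative to those implied by TPM were 46.8% to 62.3% of the median gene in the controls and 112% and 116% in RBMXL3. PABPN1 stood at 2.84% to 7.01% in all 6 libraries. An annotated read-through transcript, BCL2L2-PABPN1, shares exons with this gene, which makes its reads less certain.

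Integrator cuts small nuclear RNAs and some nascent messages through INTS11, a relative of CPSF3. Of its 15 subunits, 0 were called higher and 2 lower against GFP (13.3%, beside 20.9% of all genes), and 0 higher and 5 lower against WT (33.3%, beside 29.9%). The median log2 change was -0.14 against GFP and -0.20 against WT. INTS13 fell by 0.48 and 0.67 on the log2 scale (adjusted p = 0.024 and 0.0031, limma) and INTS7 by 0.51 and 0.63 (adjusted p = 0.00378 and 0.000675, limma).

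Of 26 regulators of termination and site choice, 25 were tested, with 2 called higher and 4 lower against GFP (24.0%, beside 20.9% of all genes) and 3 higher and 7 lower against WT (40.0%, beside 29.9%). Their median log2 change was -0.03 and -0.13. XRN2, the exonuclease that chases the polymerase after the cut, had 8709 to 10119 normalised reads in the controls and 6897 and 6802 in RBMXL3. It fell by 0.40 against GFP and 0.47 against WT on the log2 scale (adjusted p = 0.0173 and 0.00508, limma). ZC3H14, a binder of poly(A) tails, fell by 0.38 and 0.50 (adjusted p = 0.0158 and 0.00259, limma). RPRD1A, which binds the polymerase tail, rose by 0.45 and 0.36 (adjusted p = 0.00689 and 0.014, limma). Its gene reads relative to those implied by TPM also differed, at 65.3% to 74.1% of the median gene in the controls and 90.1% and 90.7% in RBMXL3. RBM27, of the machinery for nuclear decay of polyadenylated RNA, rose by 1.26 and 0.94 (adjusted p = 0.000503 and 0.0012, limma), but its summed TPM changed by -0.16 and -0.05 and was not called.

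Among 6 factors for histone pre-mRNA ends, ZNF473, a component of the U7 complex, was the only one called (16.7% of the list against either control, beside 20.9% and 29.9% of all genes). It fell by 0.51 against GFP and 0.62 against WT (adjusted p = 0.0107 and 0.00232, limma). Of 9 proteins that bind or trim poly(A) tails, 8 were tested, with 2 higher and 2 lower against GFP (50%, beside 20.9% of all genes) and 2 higher and 3 lower against WT (62.5%, beside 29.9%). Their median log2 change was -0.13 and -0.19. PABPN1, given above with the core factors, is also in this list and is among those called higher. PAIP2, a repressor of translation that displaces the cytoplasmic poly(A)-binding protein, had 2907 to 3415 normalised reads in the controls and 2173 and 2207 in RBMXL3. It fell by 0.57 and 0.49 (adjusted p = 0.0027 and 0.00361, limma), and it fell in summed TPM too, by 0.54 and 0.47 (adjusted p = 0.0319 and 0.0312, limma). PABPC4 fell by 0.36 and 0.48 (adjusted p = 0.0209 and 0.00311, limma). PABPC1L rose by 0.69 and 0.58 (adjusted p = 0.0308 and 0.0487, limma), although its controls ranged from 411 to 757 normalised reads against 854 and 838 in RBMXL3. Of the genes named from these lists, PAIP2 alone was called in both tables against both controls.

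**Figure D5:**
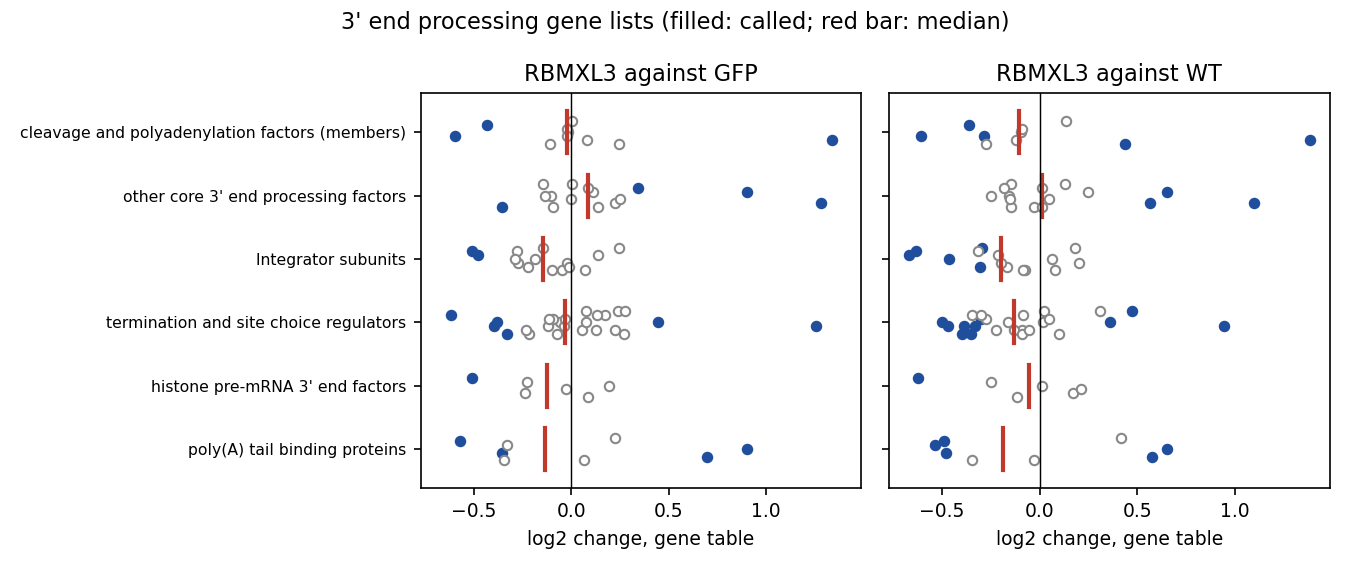
Log2 change of each gene in 6 lists in RBMXL3 against GFP (left) and WT (right), from the gene table; filled points passed an adjusted p of 0.05 and red bars are list medians. The Integrator median is at -0.14 and -0.20, and NUDT21, PPP1CB and RBM27 are the points farthest to the right in their lists against GFP.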

How the data were processed

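The values of 6 libraries (3 groups of 2) were used as the authors deposited them: a gene table of normalised signal and a transcript table of TPM. Per the submitters' processing notes, Trim Galore 0.6.10, STAR 2.7.11a, DESeq2, Salmon 1.10.2 and GRCh38 were used. The counter, annotation and strand setting are not given in the sources used here. The deposited signal turned out to be reads divided by size factors: 100% of 145320 values above 0 came out as whole reads, from 17685680 to 29318007 reads per library. The tolerance was 0.001 read and grew in proportion for large counts. The test had been planned for values on a CPM scale, so the signal was divided by one common factor of 23.9. Tests used limma 3.58.1 in R 4.3.3 on log2(value + 1), all 6 libraries in one fit, for genes at 1 or more in at least 2 libraries, two-sided, with Benjamini-Hochberg adjustment. Fold changes are on that log2 scale and understate changes of low genes. edgeR 4.0.16 and DESeq2 1.42.0 were run on the recovered reads as alternatives. Transcript usage was tested with diffSplice on log2(TPM + 1), and distal shares with limma on an arcsine scale.

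Transcripts were matched without version suffix to GENCODE 29, which holds 201667 of the 251955 listed and 94.7% to 95.0% of each library's TPM; the rest have no gene here. For NUDT21-201, CPSF3-201, CSTF3-201 and CPSF2-201 the deposited version is later than that of GENCODE 29, so the deposited ends may differ from those printed. The versions of CPSF1-212, CPSF7-205 and CSTF2-201 also differ, so the ends searched for AATAAA may not be the deposited ones. The fits were run on simulated data to check the code. For diffSplice each simulated gene had a single spread, and simulated distal shares changed by more than those of any factor here. The check therefore does not show how often changes like those described here would be found. Named are the 10 factors, listed genes called against both controls, and the 3 genes most like the factor with the largest called change. Transcripts were named from those with a mean share of 10% or more in any group or called against both controls. Not all of these transcripts are given. The factors and lists were chosen with earlier results of these data known. Alternatives were other pseudocounts, filters, normalisations, tools and end windows, summed TPM, a replicate block, and each library left out.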

Additional observations from a re-analysis of the deposited data

How the results depend on the processing

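The number of factors called against GFP, against WT and against both controls was 3, 5 and 3, and it became 0, 1 and 0 in summed TPM. Without a filter it was 3 against WT. Leaving out 1 library at a time gave 1 to 5 against GFP, 2 to 6 against WT, 1 to 5 against both and 0 to 3 between the controls; the lowest against GFP and against both came without the second RBMXL3 library, the highest of these without the first GFP library, and the lowest against WT without the first WT library or either RBMXL3 library. Called transcripts, 2 in each comparison with RBMXL3, became 0, 0 and 0 when shares were tested, and 1 against WT and 1 against both with a pseudocount of 0.1. Leaving out 1 library gave 0 to 4 transcripts against GFP, 1 to 5 against WT, 0 to 2 against both and 0 to 1 between the controls. The distal share had 0 calls in every setting, including one added after seeing the data that kept only transcripts with complete annotated ends. In the gene table, NUDT21 was called against both controls in every setting.

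Apart from those of NUDT21 against GFP and WT, the log2 changes that changed sign had not been called. In summed TPM, against GFP, CPSF7 was at 0.24, NUDT21 at -0.14 and CSTF3 at 0.10; against WT, CPSF7 was at 0.088, CPSF2 at 0.015 and NUDT21 at -0.16; between the controls, CSTF1 was at -0.029, CSTF2 at -0.084 and NUDT21 at -0.029. With quantile normalisation, against GFP, CSTF2 was at -0.026, CPSF6 at 0.064, CPSF7 at 0.040 and PCF11 at 0.028; against WT, CPSF6 was at 0.0039 and CPSF7 at 0.022; between the controls, CPSF3 was at 0.0069. With 1 library left out, the log2 changes of the sign-changing genes against GFP ranged from -0.058 to 0.022 for CPSF6, -0.13 to 0.086 for CPSF7, -0.049 to 0.21 for CPSF2, -0.12 to 0.13 for CSTF2 and -0.34 to 0.12 for CSTF3. Between the controls they ranged from -0.13 to 0.11 for CPSF3, -0.16 to 0.26 for NUDT21, -0.032 to 0.42 for CPSF1, -0.40 to 0.067 for CSTF3 and -0.18 to 0.040 for CPSF7. The cause of these changes was not tested.

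Same-numbered libraries shared little deviation from their group means. The correlation was -0.16 for WT with GFP, 0.03 for WT with RBMXL3 and -0.09 for GFP with RBMXL3. Low correlations cannot show that the libraries are unpaired, and the labels do not say whether they are. With the replicate number as a block, 3, 4 and 3 factors were called, PCF11 no longer against WT. As groups of 2 leave few degrees of freedom, a small change can go uncalled at any depth.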
